A study of Homo sapiens with 4 samples.

Results

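The genes described here were 42 genes of the TGF-beta superfamily, taken from the 58174 genes in the files by a list of names drawn up with earlier results of these data known; the rule itself sets no threshold on a measured value. They comprised 3 TGF-beta ligands, 13 BMP and GDF ligands, the protease BMP1, 4 activin and nodal ligands, 5 type I receptors, 6 type II receptors and co-receptors, 7 secreted antagonists and 3 membrane or intracellular inhibitors. They were measured by RNA-seq of total RNA in Daoy cells, an established line from a human medulloblastoma. Libraries labelled EED-knockout (2 libraries, 1 and 2) were compared with libraries labelled wild type (2 libraries, 1 and 2). EED belongs to the core of PRC2, the Polycomb enzyme complex that methylates histone H3 at lysine 27 and keeps genes repressed. The labels do not say how the gene was disrupted, whether a library is a separate culture or clone, or how long the cells were grown, and the p-values below thus rest on a spread between libraries that could be technical.

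Ligands of this family are secreted dimers that bring type II and type I receptor kinases together, and the activated type I receptor phosphorylates receptor SMADs, which enter the nucleus with SMAD4. TGF-betas, activins and nodal act mainly through SMAD2 and SMAD3, and BMPs and most GDFs mainly through SMAD1, SMAD5 and SMAD9. Secreted antagonists such as gremlin, noggin, chordin and follistatin bind ligands outside the cell, and SMAD6, SMAD7 and BAMBI dampen the response of the cell. BMP signals are known for driving granule neuron precursors, from which some medulloblastomas arise, out of the cell cycle, and several BMP ligands and antagonists are known PRC2 targets in embryonic stem cells.

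The libraries held 17836112 to 19106382 estimated counts, so that 3 counts, taken as a floor, stood for 0.157 to 0.168 CPM, the counts scaled to library size. EED itself had 340 and 490 counts in the knockout libraries, against 626 and 500 in the wild type libraries. Both knockout values were lower, by a log2 fold change of -0.49 (SE 0.27) that missed the threshold of edgeR's quasi-likelihood F test (adjusted p = 0.878), and a lesion in the gene need not change the level of its messenger. Vimentin, VIM, stood at 4106 and 4071 CPM in knockout against 4328 and 3755 CPM in wild type. Of the 10 mesenchyme markers, DCN had the lowest mean, 0.855 CPM. The epithelial marker KRT18 stood at 564 and 476 CPM in knockout against 465 and 585 CPM in wild type. Of 13 markers of medulloblastoma and granule neurons, 10 passed the filter on low counts, MYCN and GLI1 with means of only 0.706 and 0.896 CPM. BARHL1, NEUROD1 and ATOH1 did not pass it. ATOH1, which marks granule neuron precursors, had 0 counts in every library. Knockout 2 stood apart from the other 3 libraries for single genes: TEK, an endothelial receptor kinase, had 286 counts in knockout 1 and 1 count in knockout 2, against 193 and 204 in wild type. The 4 endothelial markers summed to 9.08 and 0.413 TPM in knockout and 3.88 and 6.54 TPM in wild type, and the 5 blood markers to 1.004 and 1.29 TPM in knockout and 0.435 and 1.72 TPM in wild type. Whether such differences between libraries bear on the values below was not tested. In bulk RNA, fewer cells that express a gene and less RNA per cell cannot be told apart.

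Of the 42 genes, 35 passed the filter on low counts, and none of them passed a test adjusted over all 18349 genes. Among all genes, edgeR called 0 (0% of those tested; smallest adjusted p = 0.423), and the smallest adjusted p of a superfamily gene was 0.799. DESeq2 called 68 genes (0.371%) and again none of the 35, with a smallest adjusted p of 0.281. With 1 library left out, edgeR called 92 genes (no knockout 1), 95 (no knockout 2), 0 (no wild type 1) and 4 (no wild type 2), and none of them was one of the 35. At an unadjusted edgeR p under 0.05, the chordin gene CHRD, BMP6 and INHBB were higher in knockout (3 of 35, or 8.57%, beside 2.85% of all genes) and the gremlin gene GREM1 was lower (1 of 35, or 2.86%, beside 3.05%). With knockout 1 left out, that count of 4 became 9 (9.6% of all genes were under the same limit), with knockout 2 left out 8 (14.9%), with wild type 1 left out 1, which was CHRD (1.63%), and with wild type 2 left out 9 (5.4%). Of these 4 genes, CHRD alone stayed under that limit in every alternative run. On the log2(TPM + 1) and log2(TPM + 0.1) scales the genes under it were BMP7, CHRD and TGFB3, all higher in knockout. With the replicate block FSTL3 took the place of BMP6, and with the medians of chromosome arms removed GREM1 dropped out. For 6 of the 35 genes the knockout values were both above the wild type values (17.1%, beside 17.8% of all genes) and for 4 both were below (11.4%, beside 18.0%). These shares were near or under those of all genes.

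**Figure D1:**
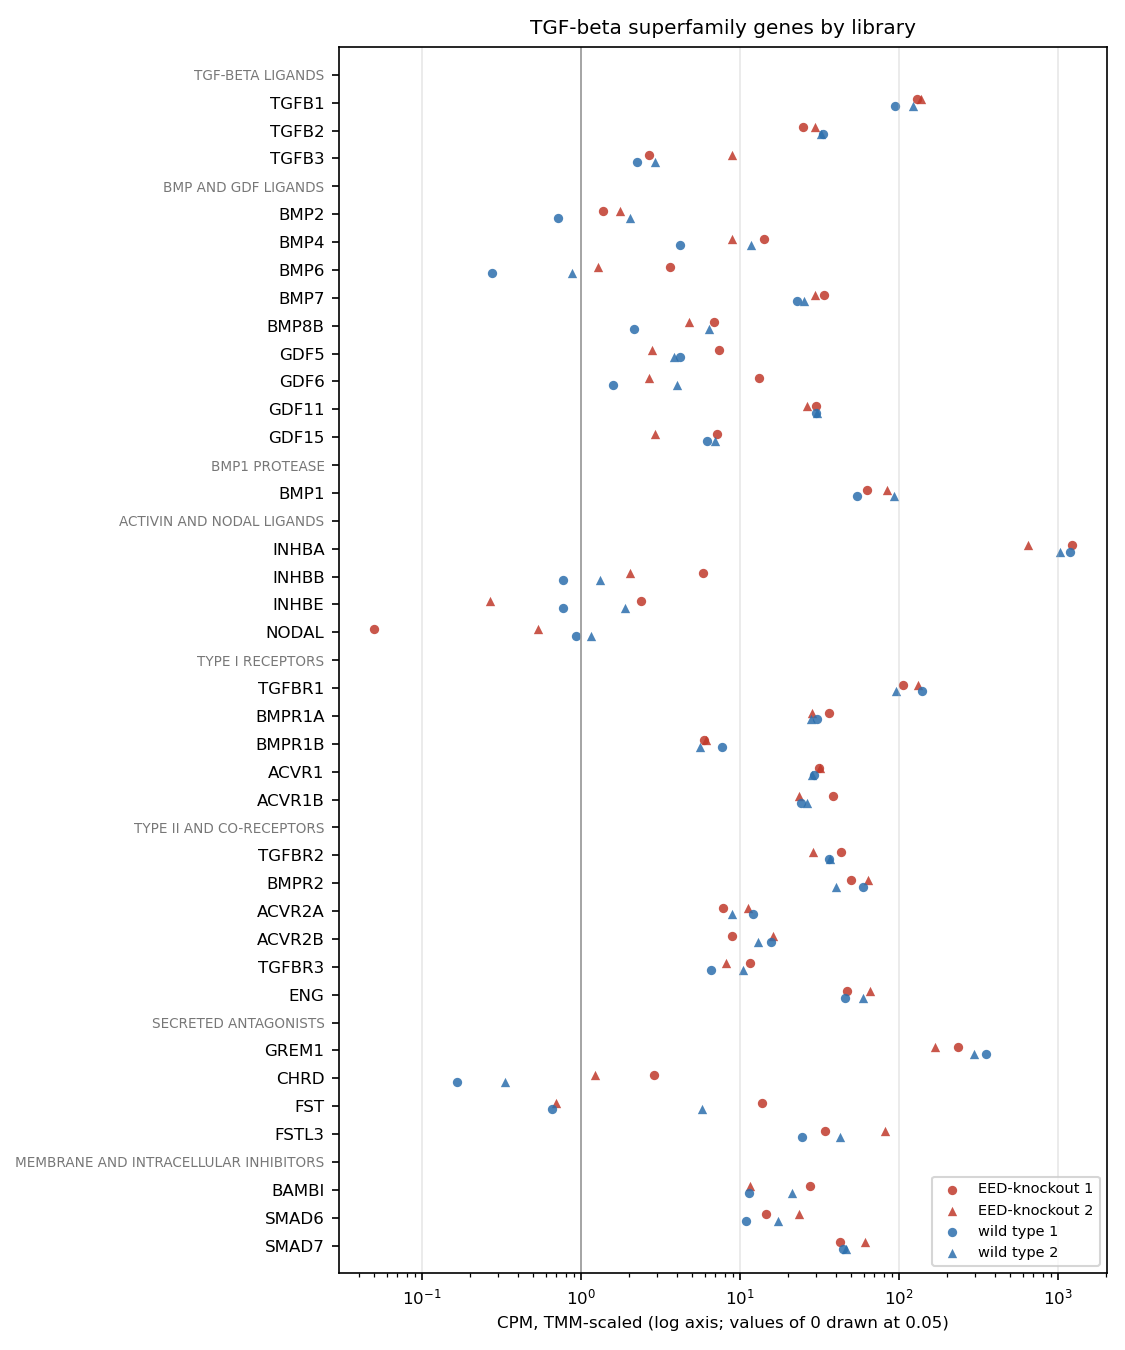
CPM (log axis) of the 35 tested genes in each library, grouped by role, with knockout libraries in red and wild type libraries in blue, circles for replicate 1 and triangles for replicate 2. INHBA lies between 648 and 1227 CPM, FST runs from 0.661 to 13.9 CPM with 1 library of each genotype at either end, and CHRD, BMP6 and INHBB have both red points to the right of both blue ones.

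The log2 fold change, knockout over wild type, was above 0 for 24 of the 35 genes (68.6%, beside 50.9% of all genes), and its median was 0.20, beside 0.0074 for all genes. The libraries of 1 genotype differed as much. Relative to the wild type mean, the median of the 35 genes on the log2 scale stood at 0.15 in knockout 1 and 0.13 in knockout 2, against -0.14 in wild type 1 and 0.14 in wild type 2. For 28 of the 35 the log2 range within a genotype exceeded the difference between genotypes, as it did for 76.0% of all genes. Leaving out wild type 1 gave a median of 0.10 with 19 genes above 0, and leaving out wild type 2 gave 0.35 with 23 above 0. The same values were 0.14 and 19 without knockout 1, and 0.13 and 23 without knockout 2.

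**Figure D2:**
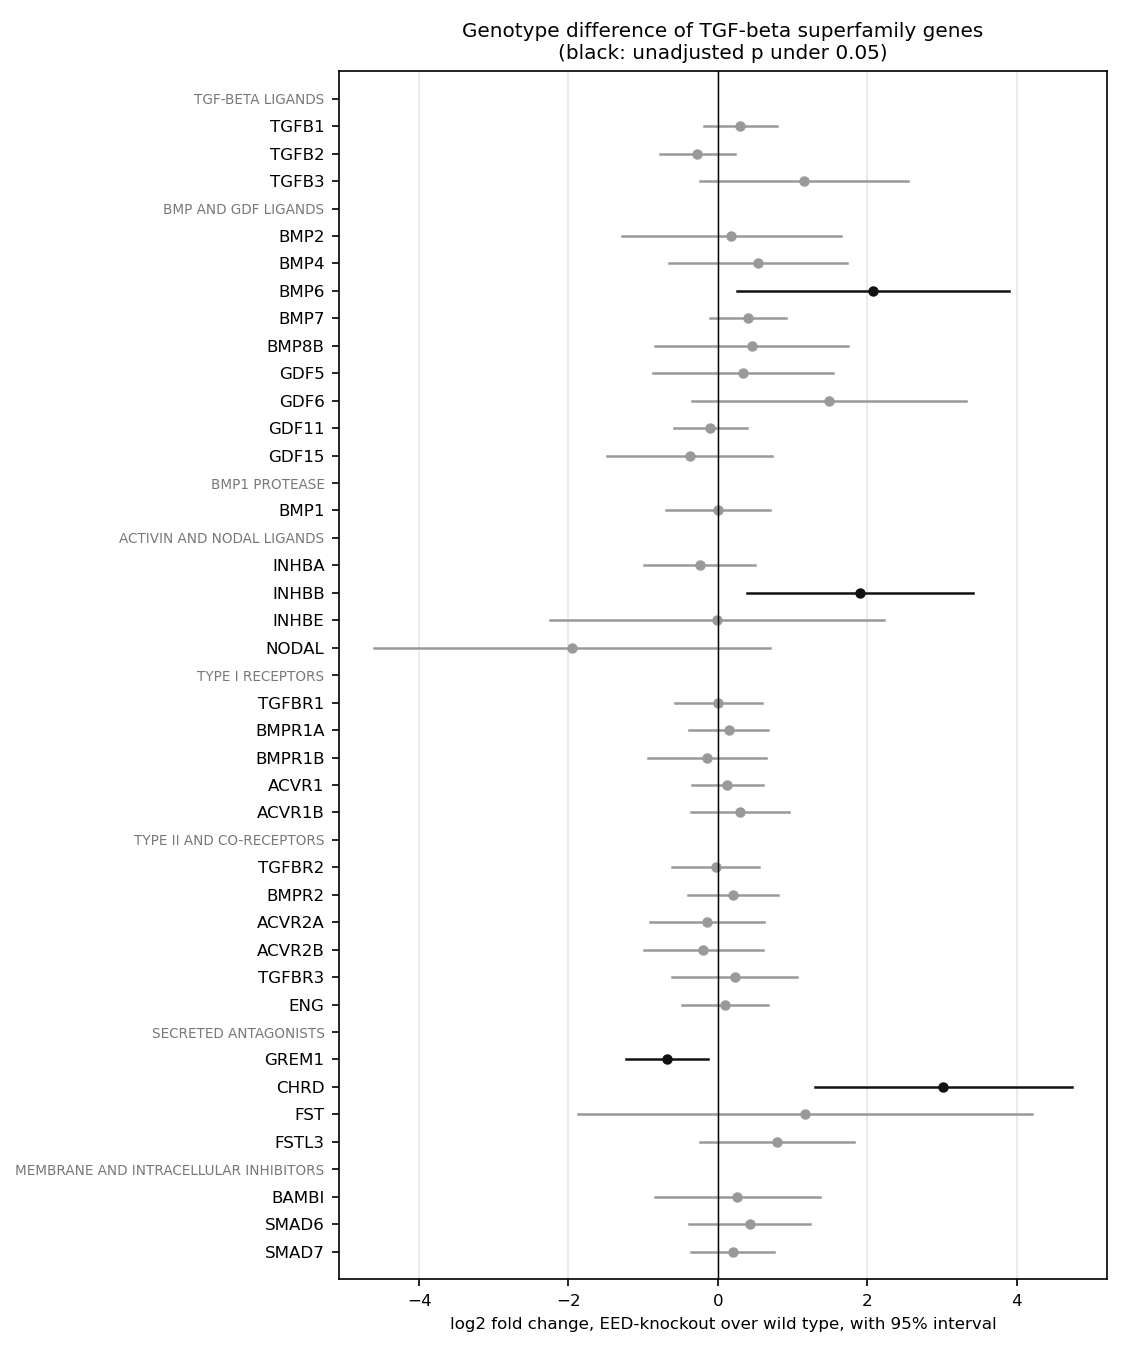
Log2 fold change, EED-knockout over wild type, of the 35 tested genes with the 95% interval of the edgeR fit, with the 4 genes at an unadjusted p under 0.05 in black. The intervals of type I receptors, type II receptors and co-receptors all cross 0, and the widest intervals belong to NODAL, FST and INHBE.

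Of the TGF-beta ligands, which bind TGFBR2 and TGFBR1, TGFB1 was the most abundant (ENSG00000105329; chromosome 19, 41301587 to 41353911). It stood at 131 and 137 CPM in knockout against 94.3 and 123 CPM in wild type, a mean of 133.8 ± 4.30 against 108.5 ± 20.02 CPM (SD, n = 2 each). Both knockout values were the higher ones, by a log2 fold change of 0.30 (SE 0.20; edgeR adjusted p = 0.890), and TGFB1-001 carried 91.8% to 96.6% of its TPM. Its exons share 215 bases with HNRNPUL1 on the opposite strand, a gene at 483 CPM, and no source used here says whether counting used strand. TGFB2, on chromosome 1 (218346235 to 218444619), was lower in both knockout libraries, at 24.8 and 29.7 CPM against 33.5 and 32.4 CPM in wild type (log2 fold change -0.27, SE 0.21, edgeR adjusted p = 0.899), although its TPM values overlapped. TGFB3 had 2.69 and 8.87 CPM in knockout against 2.26 and 2.93 CPM in wild type, and its log2 fold change was 1.15 (SE 0.59), or 0.050 without knockout 2. Its TPM did not overlap (9.58 and 10.8 in knockout, 1.85 and 3.64 in wild type). Much of it lay in short processed transcripts, TGFB3-004 (210 bases, 4 counts, 5.64 TPM) in knockout 1 and TGFB3-005 (716 bases, 38 counts, 6.03 TPM) in knockout 2.

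Among BMP and GDF ligands, 9 of 13 were tested and 7 of those had a fold change above 0, with a median of 0.41 on the log2 scale. The median relative to the wild type mean, on the log2 scale, was 0.87 in knockout 1 and 0.30 in knockout 2, against -0.64 in wild type 1 and 0.64 in wild type 2, so the wild type libraries stood further apart than the genotypes. Leaving out wild type 1 gave a median fold change of -0.013, and leaving out wild type 2 gave 1.12.

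BMP6, a ligand known for inducing hepcidin and bone (ENSG00000153162; chromosome 6, 7726797 to 7881422), had 69 and 24 counts in knockout against 5 and 16 in wild type. That was 3.63 and 1.28 CPM against 0.275 and 0.885 CPM, with both knockout libraries higher and 1 transcript in the annotation used by the files. The means were 2.46 ± 1.66 and 0.580 ± 0.431 CPM (SD, n = 2 each) and the log2 fold change was 2.07 (SE 0.77; edgeR adjusted p = 0.808), with 1.47 without wild type 1, 3.13 without wild type 2 and 1.14 without knockout 1. BMP7, which acts in kidney and eye development, was the ligand of this group with the highest TPM (chromosome 20, 57168748 to 57266629). It stood at 34.0 and 29.6 CPM in knockout against 22.7 and 25.3 CPM in wild type, and in TPM at 23.1 and 22.3 against 15.6 and 14.7. Both scales separated the genotypes, with a log2 fold change of 0.41 (SE 0.21; edgeR adjusted p = 0.873). BMP7-001, BMP7-003 and the processed transcript BMP7-005 shared its TPM, with BMP7-005 at 33.7% and 40.9% in knockout and 42.7% and 35.4% in wild type.

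BMP4, a ligand of dorsal neural tube patterning, had 14.2 and 8.92 CPM in knockout against 4.18 and 11.7 CPM in wild type, and BMP2 had 1.37 and 1.76 CPM against 0.716 and 2.05 CPM. Both pairs overlapped, and their log2 fold changes of 0.54 and 0.18 turned to -0.013 and -0.38 without wild type 1. A coding BMP4 transcript of 1784 bases had 65.1 and 20.8 counts in knockout and 0 in both wild type libraries (edgeR adjusted p = 0.823 over all transcripts), while BMP4-001 and BMP4-002 overlapped between genotypes. GDF6, which acts in joint and eye development, had 13.2 and 2.67 CPM in knockout against 1.60 and 4.04 CPM in wild type (log2 fold change 1.49, SE 0.78, and -0.070 without knockout 1). Its relative GDF5 had 7.43 and 2.78 CPM against 4.18 and 3.87 CPM (0.34, SE 0.51, and -0.53 without knockout 1). For both, knockout 1 was the highest library. BMP8B had 6.90 and 4.81 CPM in knockout against 2.15 and 6.42 CPM in wild type (0.45, SE 0.55, and -0.13 without wild type 1); it shares sequence with its near-identical neighbour BMP8A and 80 exon bases with PPIE, so its counts are uncertain.

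GDF11, a regulator of axial patterning and neurogenesis, had 30.0 and 26.3 CPM in knockout against 30.2 and 30.4 CPM in wild type. Its log2 fold change of -0.10 (SE 0.21) had the opposite sign on the TPM scale, and its exons overlap those of SARNP. GDF15, a stress-induced cytokine on chromosome 19 (18374731 to 18389176), had 7.22 and 2.94 CPM in knockout against 6.22 and 6.97 CPM in wild type. Knockout 2 alone was low, and the log2 fold change of -0.38 (SE 0.47; edgeR adjusted p = 0.943) was 0.13 without it. The protease BMP1, which is not a BMP ligand but cleaves procollagens and chordin (chromosome 8, 22164736 to 22212326), had 62.7 and 84.5 CPM in knockout against 54.4 and 92.6 CPM in wild type. Its mean was 73.6 CPM in knockout and 73.5 CPM in wild type, with a log2 fold change of 0.0019 (SE 0.29; edgeR adjusted p = 1.0; 95% interval -0.70 to 0.70).

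Activin A is a dimer of the INHBA product, and INHBA was by TPM the most abundant of the 42 genes (ENSG00000122641; chromosome 7, 41667168 to 41705834). Its counts were 23298 and 12134 in knockout against 21487 and 18753 in wild type, or 1227 and 648 CPM against 1183 and 1037 CPM. Knockout 2 was the lowest library and knockout 1 the highest. Means of 938 ± 409 and 1110 ± 103 CPM (SD, n = 2 each) gave a log2 fold change of -0.24 (SE 0.31; edgeR adjusted p = 0.945), which became 0.14 without knockout 2. INHBB, which encodes the subunit of activin B (ENSG00000163083; chromosome 2, 120346143 to 120351808), was low: 111 and 38 counts in knockout against 14 and 24 in wild type. In CPM these were 5.85 and 2.03 against 0.771 and 1.33, with both knockout libraries higher, means of 3.94 ± 2.70 and 1.05 ± 0.394 CPM (SD, n = 2 each) and a log2 fold change of 1.90 (SE 0.64; edgeR adjusted p = 0.799), or 0.96 without knockout 1. In TPM, INHBA stood at 376 and 209 in knockout and 285 and 305 in wild type, whereas INHBB stood at 2.63 and 0.902 in knockout and 0.319 and 0.590 in wild type.

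The sequences around the RefSeq starts of 2 activin genes are shown because these genes differ widely in abundance and in CpG content, and CpG-rich promoters are a known class of PRC2 target; no measurement of chromatin is part of these data. Each has 250 bases before and 50 bases from the start (RefSeq, GRCh38.p14), 5′ to 3′ on the strand of the gene, with every CG in capitals. INHBB is at chr2:120345886-120346185 on the plus strand and holds 58 CG dinucleotides, more than 99.8% of the 35116 promoters in the table. INHBA is at chr7:41703041-41703340 on the minus strand, downstream of the gene start in GENCODE, and holds 1, with 3.96% of promoters having fewer. The sequence at its GENCODE start was not examined.
INHBB: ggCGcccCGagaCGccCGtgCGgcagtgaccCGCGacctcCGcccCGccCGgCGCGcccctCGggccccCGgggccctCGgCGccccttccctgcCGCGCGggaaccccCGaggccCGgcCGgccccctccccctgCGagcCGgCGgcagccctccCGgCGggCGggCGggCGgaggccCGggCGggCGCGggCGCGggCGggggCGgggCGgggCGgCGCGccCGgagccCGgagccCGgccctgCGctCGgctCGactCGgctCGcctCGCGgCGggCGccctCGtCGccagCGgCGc
INHBA: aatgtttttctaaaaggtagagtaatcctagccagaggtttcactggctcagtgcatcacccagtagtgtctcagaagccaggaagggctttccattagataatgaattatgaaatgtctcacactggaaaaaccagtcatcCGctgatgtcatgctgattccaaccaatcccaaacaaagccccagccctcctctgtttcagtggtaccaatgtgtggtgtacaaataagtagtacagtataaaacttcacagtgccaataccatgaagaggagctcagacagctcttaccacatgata

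Over the family, 33 genes had 52 promoters in that table, with a median of 25.5 CG against 14 for all promoters. The promoters of 9 genes, BMP7 and GDF6 among them, were not analysed here.

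INHBE, a subunit of activin E known mainly from liver, had 2.37 and 0.267 CPM in knockout against 0.771 and 1.88 CPM in wild type, and knockout 1 and wild type 2 were the high libraries (log2 fold change -0.0058, SE 0.95). NODAL, the mesendoderm inducer, had 0 and 10.3 counts in knockout against 17.2 and 21.3 in wild type. Its knockout values were the lower ones, with a log2 fold change of -1.95 (SE 1.12; edgeR adjusted p = 0.881), and an antisense partner shares 698 bases of its exons.

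Type I receptors, the kinases that phosphorylate SMADs, had log2 fold changes between -0.14 and 0.29. TGFBR1 had the highest TPM of them (chromosome 9, 99104038 to 99154192), with 106 and 132 CPM in knockout against 140.5 and 95.9 CPM in wild type. The wild type libraries held both the highest and the lowest value, and the log2 fold change was 0.0077 (SE 0.24; edgeR adjusted p = 0.998; 95% interval -0.57 to 0.59). ACVR1, the BMP receptor also called ALK2, had 31.4 and 31.7 CPM in knockout against 29.3 and 28.5 CPM in wild type, which did not overlap but differed by 0.13 on the log2 scale (SE 0.20). BMPR1A had 36.6 and 28.3 CPM against 30.6 and 28.0 CPM (0.15, SE 0.22), BMPR1B had 5.95 and 6.15 CPM against 7.71 and 5.64 CPM (-0.14, SE 0.33), and both signs turned on the TPM scale. The activin receptor ACVR1B had 38.3 and 23.7 CPM in knockout against 24.3 and 26.3 CPM in wild type (0.29, SE 0.28, and -0.089 without knockout 1).

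Type II receptors bind ligand and activate the type I chain. TGFBR2, for TGF-beta, had 43.0 and 28.8 CPM in knockout against 36.3 and 36.8 CPM in wild type (log2 fold change -0.026, SE 0.25; 0.023 on the log2(TPM + 1) scale). Its transcripts were divided differently: TGFBR2-002 held 18.1% and 10.8% of the TPM of the gene in knockout against 49.4% and 40.3% in wild type, and TGFBR2-001 held most of the remainder. The counts of TGFBR2-002 were 147 and 57.5 in knockout against 325 and 266 in wild type, without overlap, and its log2 fold change of -1.60 (SE 0.54) did not pass the test over all transcripts (edgeR adjusted p = 1.0). Such splits rest on kallisto's model of fragments that fit both transcripts. Of the 87 tested transcripts of the 42 genes, 4 were at an unadjusted edgeR p under 0.05. They were TGFBR2-002 and transcripts of BMP4, BMP1 and GREM1. How many of all transcripts were under that limit was not counted. The number thus has no background beside it and is no result about the family. Of all 56858 transcripts tested, 0 passed the adjusted test. The BMP receptor BMPR2 had 50.1 and 64.0 CPM in knockout against 59.1 and 40.2 CPM in wild type (0.20, SE 0.25, and -0.051 without wild type 2).

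The activin receptors ACVR2A and ACVR2B were lower in abundance. ACVR2A had 7.79 and 11.3 CPM in knockout against 12.1 and 8.96 CPM in wild type (log2 fold change -0.14, SE 0.32), and 430 of its exon bases overlap ORC4. ACVR2B had 8.95 and 16.0 CPM against 15.7 and 12.9 CPM (-0.20, SE 0.34; 0.0059 on the log2(TPM + 1) scale). The co-receptor endoglin, ENG, which is known from endothelium, had the highest TPM of this group (chromosome 9, 127815012 to 127854756), at 46.9 and 65.3 CPM in knockout against 45.9 and 59.1 CPM in wild type. Its values overlapped, with a log2 fold change of 0.097 (SE 0.24; edgeR adjusted p = 0.978). Betaglycan, TGFBR3, which presents TGFB2 and inhibin, had 11.6 and 8.18 CPM in knockout against 6.55 and 10.4 CPM in wild type (0.23, SE 0.35, and -0.045 without knockout 1).

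The secreted antagonists held the largest fold change of the 35 genes and the 1 gene that was lower at an unadjusted p under 0.05. GREM1, gremlin, which binds BMP2 and BMP4 (ENSG00000166923; chromosome 15, 32717974 to 32745107), was the most abundant by TPM, with 4479 and 3145 counts in knockout against 6387 and 5350 in wild type. Those were 236 and 168 CPM against 352 and 296 CPM, with both knockout libraries lower and means of 202.0 ± 48.0 and 324 ± 39.4 CPM (SD, n = 2 each). The log2 fold change was -0.68 (SE 0.23; 95% interval -1.23 to -0.13), or 1.60 times as much in wild type, with an adjusted p of 0.808 in edgeR and 0.446 in DESeq2. Its TPM values were 87.6 and 60.4 in knockout against 102 and 103 in wild type, and both main transcripts, GREM1-001 and GREM1-002, were lower in both knockout libraries.

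CHRD, chordin, which also binds BMPs (ENSG00000090539; chromosome 3, 184380073 to 184390736), had 55.4 and 23.3 counts in knockout against 3 and 6 in wild type. The wild type values stand at or near the floor of 3 counts. In CPM they were 2.90 and 1.23 in knockout against 0.165 and 0.332 in wild type, means of 2.06 ± 1.18 and 0.249 ± 0.118 CPM (SD, n = 2 each), and the log2 fold change was 3.02 (SE 0.73; edgeR adjusted p = 0.799). CHRD ranked 96 by p among all genes, and its log2 fold change lay between 2.28 and 3.59 when any 1 library was left out. The coding transcript CHRD-001 had 23.7 counts in knockout 1 and 0 in the other 3 libraries, while CHRD-016, which retains an intron, had 29.8 and 6.27 counts in knockout and 0 in both wild type libraries. Another coding transcript, CHRD-013, went the other way, with 0 counts in both knockout libraries against 3 and 4.65 in wild type. Exons of CHRD share 361 bases with THPO on the opposite strand, which stood at 0.081 CPM.

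The promoters of CHRD and BMP6, the genes with the largest fold changes besides INHBB among those at an unadjusted p under 0.05, are shown in the same format for comparison with the activin genes. CHRD is at chr3:184379804-184380103 on the plus strand and holds 36 CG, more than 87.3% of promoters. BMP6 is at chr6:7725849-7726148 on the plus strand, upstream of the gene start in GENCODE, and holds 33, more than 82.8%. The promoters of GREM1, which was lower in knockout at the same limit, held 42 and 31 CG and are not shown. Whether CG content goes with the fold changes was not tested.
CHRD: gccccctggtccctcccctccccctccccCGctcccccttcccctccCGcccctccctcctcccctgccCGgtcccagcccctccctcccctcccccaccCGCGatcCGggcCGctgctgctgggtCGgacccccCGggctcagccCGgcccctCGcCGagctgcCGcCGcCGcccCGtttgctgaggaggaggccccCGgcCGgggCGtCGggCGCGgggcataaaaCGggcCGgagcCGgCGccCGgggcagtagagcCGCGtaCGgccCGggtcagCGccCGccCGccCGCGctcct
BMP6: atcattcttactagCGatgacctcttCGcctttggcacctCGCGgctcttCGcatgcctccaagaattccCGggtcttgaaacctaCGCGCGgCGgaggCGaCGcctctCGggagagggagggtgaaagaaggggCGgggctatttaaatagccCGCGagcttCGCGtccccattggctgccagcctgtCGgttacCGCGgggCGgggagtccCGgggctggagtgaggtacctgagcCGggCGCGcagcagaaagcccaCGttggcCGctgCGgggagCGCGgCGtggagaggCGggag

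Follistatin and its relative FSTL3 bind activins. FST had 263 and 13 counts in knockout against 12.03 and 105 in wild type, so knockout 1 and wild type 2 were high and the other 2 libraries low. In CPM these were 13.9 and 0.695 against 0.661 and 5.81, and the log2 fold change of 1.17 (SE 1.29) was -2.20 without knockout 1 and 3.45 without wild type 2. FSTL3 had 34.4 and 82.3 CPM in knockout against 24.6 and 42.8 CPM in wild type (0.79, SE 0.44), with knockout 2 alone above both wild type libraries. Of the inhibitors inside the cell, SMAD7, which blocks type I receptors, had the highest TPM (chromosome 18, 48919853 to 48952052), at 42.4 and 61.5 CPM in knockout against 44.4 and 46.2 CPM in wild type. Its log2 fold change was 0.20 (SE 0.23; edgeR adjusted p = 0.941), or -0.095 without knockout 2. SMAD6, which acts mainly on BMP signals, had 14.6 and 23.5 CPM in knockout against 10.95 and 17.4 CPM in wild type (0.43, SE 0.34). BAMBI, a receptor without a kinase domain, had 27.6 and 11.5 CPM in knockout against 11.5 and 21.2 CPM in wild type (0.26, SE 0.46, and -0.49 without knockout 1).

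The 7 genes below the filter were BMP3 and LEFTY2, with 0 counts in every library, and BMP5, BMP8A, GDF10, LEFTY1 and NOG. GDF10 had 16 and 0 counts in knockout against 2 and 5 in wild type. LEFTY1, an inhibitor of nodal, had 0 and 7 counts in knockout and 0 in both wild type libraries, and it shares sequence with LEFTY2. Noggin, NOG, had 0 and 1 counts in knockout against 0 and 2 in wild type, BMP5 had 1 and 1 against 3 and 6, and BMP8A had at most 4.24 in any library. At this depth a count of 0 allows up to 0.168 CPM.

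Across the family, 4 of the 35 genes were over 2-fold higher in knockout 1 than in knockout 2 and at the same time over 2-fold higher in wild type 2 than in wild type 1 (BMP6, FST, GDF6 and INHBE; 11.4%, beside 1.88% of all genes). Knockout 1 exceeded knockout 2 by 19.9 times for FST, 8.87 times for INHBE, 4.95 times for GDF6 and 2.83 times for BMP6. Wild type 2 exceeded wild type 1 by 8.79, 2.44, 2.53 and 3.22 times for the same genes. The labels give no batch, and this pattern runs across the genotypes. BMPER, a BMP-binding protein outside the 42, had it too, with 430 and 6 counts in knockout against 17 and 166 in wild type. What the high libraries share was not tested.

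**Figure D3:**
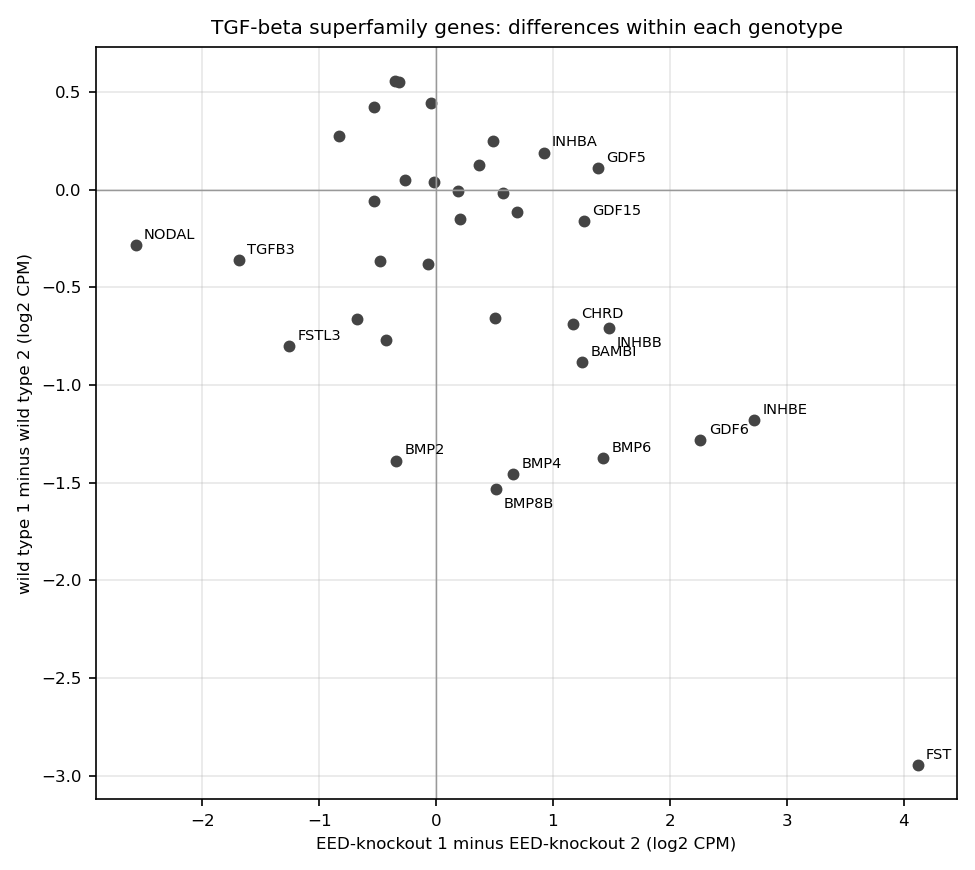
Difference between the 2 libraries of each genotype in log2 CPM for the 35 tested genes, with knockout 1 minus knockout 2 on the x axis and wild type 1 minus wild type 2 on the y axis. FST, INHBE, GDF6 and BMP6 lie at the lower right, high in knockout 1 and wild type 2. Of the receptors, ACVR2B lies furthest from 0 on either axis, at -0.83 on the x axis.

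Other genes of the pathway were counted in 7 lists. No gene of them passed edgeR's test, and DESeq2 called 1, TAGLN. Among the 17 BMP response genes, all tested, 15 had a fold change above 0 (beside 50.9% of all genes), with a median of 0.39. For 7 of them both knockout libraries were above both wild type libraries (beside 17.8% of all genes), and for 1 both were below (beside 18.0%). DLX5 was counted among the 7 although knockout 1 and wild type 1 both stood at 1.211 CPM to the digits kept. At an unadjusted edgeR p under 0.05, 1 gene of the list, GATA2, was higher (beside 2.85% of all genes) and 0 were lower (beside 3.05%). SMAD6, SMAD7 and BAMBI belong to this list as well. With knockout 1 left out 13 were above 0, with knockout 2 left out 12, with wild type 1 left out 14 and with wild type 2 left out 15. ID1 to ID4, helix-loop-helix inhibitors and classic BMP targets, had close fold changes. ID1 stood at 51.5 and 108.7 CPM in knockout against 40.8 and 54.3 CPM in wild type (log2 fold change 0.75, SE 0.36; edgeR adjusted p = 0.857). ID3 stood at 101 and 118 CPM against 44.8 and 90.3 CPM (0.70, SE 0.33; edgeR adjusted p = 0.857).

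ID2 had 8.37 and 10.3 CPM in knockout against 4.24 and 6.86 CPM in wild type (log2 fold change 0.75, SE 0.36), and ID4 had 2.58 and 4.17 CPM against 1.98 and 1.88 CPM (0.80, SE 0.45). Both knockout libraries were the higher ones for ID2, ID3 and ID4 but not for ID1, where knockout 1 lay between the wild type libraries. The log2 fold change of ID1 was 1.199 without knockout 1 and 0.11 without knockout 2. GATA2, a transcription factor induced by BMP4 in blood development, had 33.4 and 17.7 CPM in knockout against 6.66 and 16.2 CPM in wild type (1.16, SE 0.48; edgeR adjusted p = 0.834). SMAD6 was the single gene of the 33 whose promoter held GTCTAGAC, the palindrome of the SMAD-binding box, which 71 of the 35116 promoters (0.202%) hold; both strands read the same letters. The match ends before the RefSeq start and reaches past the GENCODE 29 start of the gene, and the promoter (chr15:66701986-66702285, plus strand, RefSeq, GRCh38.p14) is shown with the palindrome in capitals.
SMAD6: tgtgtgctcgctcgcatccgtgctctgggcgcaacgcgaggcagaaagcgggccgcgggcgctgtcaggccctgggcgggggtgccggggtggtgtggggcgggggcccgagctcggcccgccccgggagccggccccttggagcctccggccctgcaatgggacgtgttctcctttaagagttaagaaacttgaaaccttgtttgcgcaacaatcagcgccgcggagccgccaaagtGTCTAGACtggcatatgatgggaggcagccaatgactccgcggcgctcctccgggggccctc

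A match is a description of letters and not a site of binding. The GC-rich element GGCGCC, also the same on both strands, was in 11 promoters of the family and in 19.2% of all promoters.

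SMAD1, which carries BMP signals, differed between the knockout libraries more than any other SMAD. It had 406 and 3496 counts in knockout against 301 and 267 in wild type, or 21.4 and 187 CPM against 16.6 and 14.8 CPM. Knockout 2 alone was high, at 8.74 times knockout 1, and the transcript SMAD1-001 held 97.0% of the TPM of the gene there. The log2 fold change of 2.73 (SE 0.85, edgeR adjusted p = 0.799) was 0.45 without knockout 2 and 3.58 without knockout 1. Neighbouring genes on chromosome 4 did not share the high value, with OTUD4 at 63.1 and 49.96 CPM and MMAA at 4.79 and 3.15 CPM in knockout 1 and 2, against 60.0 and 52.9 CPM and 2.97 and 3.87 CPM in wild type.

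SMAD9 had 4.37 and 2.41 CPM in knockout against 1.87 and 1.88 CPM in wild type (log2 fold change 0.85, SE 0.47), and SMAD5 had 66.0 and 77.1 CPM against 101.6 and 77.7 CPM (-0.33, SE 0.21; 0.076 with the medians of chromosome arms removed). SMAD2 had 82.0 and 71.1 CPM in knockout against 76.8 and 82.8 CPM in wild type, and its log2 fold change of -0.061 (SE 0.19) turned to 0.11 on the log2(TPM + 1) scale. The TGF-beta and activin effector SMAD3 had 378 and 364 CPM in knockout against 283 and 345 CPM (0.24, SE 0.20), and the common SMAD4 had 80.4 and 78.2 CPM against 72.6 and 75.2 CPM (0.10, SE 0.18). SMURF2, a ubiquitin ligase that targets SMADs and receptors, stood at 133 and 123 CPM in knockout against 84.5 and 76.0 CPM in wild type, without overlap (0.68, SE 0.19; edgeR adjusted p = 0.799, DESeq2 adjusted p = 0.189). Of the 15 genes in this list of SMADs and partners, 7 had a fold change above 0 and the median was -0.011. For 6 of them both knockout libraries were above both wild type libraries (beside 17.8% of all genes). For 2 both were below (beside 18.0%). At an unadjusted edgeR p under 0.05, 2 were higher (beside 2.85% of all genes) and 0 lower (beside 3.05%).

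Among 19 tested TGF-beta and activin response genes, 11 had a fold change above 0 (beside 50.9% of all genes) and the median was 0.12. Both knockout libraries were above both wild type libraries for 3 (beside 17.8% of all genes) and below them for 3 (beside 18.0%). TAGLN, a smooth muscle gene that TGF-beta induces, was lower, at 10.1 and 10.5 CPM in knockout against 33.9 and 27.8 CPM in wild type. Its log2 fold change was -1.58 (SE 0.24), which passed DESeq2 (adjusted p = 8.72e-05) and not edgeR (adjusted p = 0.489). SKIL, a SMAD corepressor that TGF-beta induces, had 87.1 and 81.9 CPM in knockout against 126 and 97.1 CPM (-0.40, SE 0.21), and PMEPA1 had 139 and 222 CPM against 143 and 176 CPM (0.18, SE 0.27, and -0.20 without knockout 2).

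**Figure D4:**
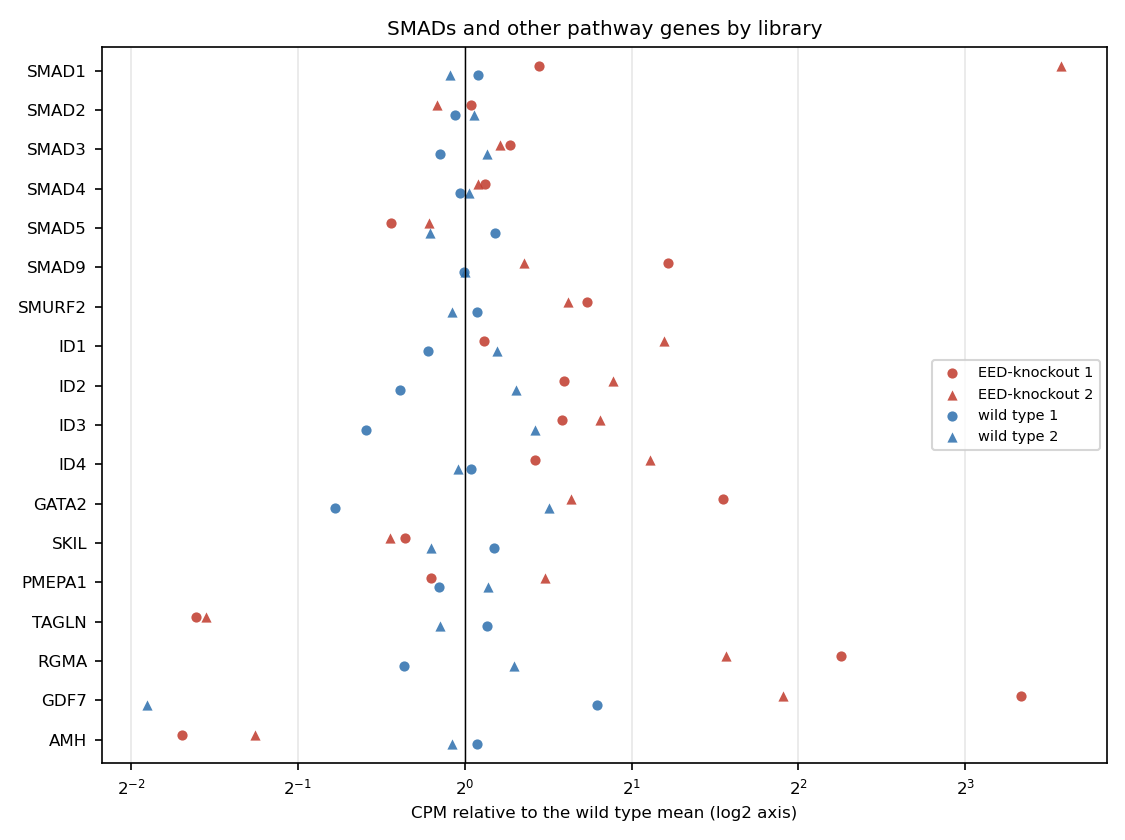
CPM of SMADs, response genes and other pathway genes in each library, divided by the wild type mean of the gene (log2 axis), with knockout libraries in red and wild type libraries in blue. Knockout 2 stands far to the right for SMAD1. Both red points lie to the right of both blue points for SMAD1, SMAD3, SMAD4, SMAD9, SMURF2, ID2, ID3, ID4, GATA2, RGMA and GDF7. Both lie to the left for SMAD5, TAGLN, SKIL and AMH, by little for SMAD5.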

How the data were processed

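Libraries were made with an Illumina kit from column-cleaned total RNA, per the labels' protocols. The deposited estimated counts and TPM values per transcript come from kallisto 0.43.1 with hg38, per the submitters' processing notes and the file headers; TPM is kallisto's abundance per effective length, scaled to a fixed total. No source used here gives the annotation release, the strand or the run settings. Kallisto divides fragments of similar transcripts by a model, so paralogs and overlapping genes are uncertain.

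Estimated counts were summed per gene, rounded to whole numbers and compared with edgeR 4.0.16 (quasi-likelihood F test, TMM, filterByExpr with minimum count 10 and minimum total 15, Benjamini-Hochberg threshold 0.05) in R 4.3.3, in all 4 libraries with no covariate. CPM is scaled by TMM. Transcripts were tested likewise. Tests were two-sided and intervals are 95% intervals of the fit; floors cover counting error only. Positions are from GENCODE 29 (GRCh38). Scripts were tested on simulated counts.

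The members and the gene lists were chosen with earlier results of these data known. Values are given for all members, with full statistics for those at an unadjusted edgeR or adjusted DESeq2 p under 0.05, the 3 largest fold changes in each direction at a mean of 1 CPM or more, and the most abundant by TPM of each role; of the 7 lists, 13 fixed genes and up to 4 genes at an unadjusted p under 0.05. Of these, 1 gene is not reported here. Alternatives were RLE size factors, no filter, replicate block, DESeq2 1.42.0, limma 3.58.1 (voom, and trend on log2(TPM + 1) and log2(TPM + 0.1)), length-scaled TPM counts, arm medians removed and each library left out, with the lone library taken to vary as the other genotype does. The crossed pairing and the counts of lists under each setting were added after seeing the data.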

Additional observations from a re-analysis of the deposited data

How the results depend on the processing

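No member of the family was called under any of the alternatives run. Over all genes, edgeR called 0 with the replicate block and 0 with other size factors, no filter, length-scaled counts, limma-voom, limma-trend or arm medians removed; DESeq2 called 68, and leaving out 1 library gave 0 to 95. The replicate numbers are not known to pair the libraries (correlation of their deviations -0.14). A crossed pairing, chosen after seeing the data, called 0 genes and 0 members. Its smallest edgeR adjusted p was 0.0565, against 0.423 in the main run. With it 8.76% of genes were at an unadjusted edgeR p under 0.05, against 5.9% in the main run. The count of members at an unadjusted p under 0.05 (4) ran from 1 to 9 with 1 library left out. Pathway-list calls were 1 with DESeq2, TAGLN, beside 68 of all genes (0.371%). Fits with 1 library left out rest on a lone library of that genotype, and their calls in the lists are not counted here. The median of the members ran from 0.10 to 0.35, and the medians of roles ran from 0.050 to 0.50 (TGF-beta ligands), -0.013 to 1.12 (BMP and GDF ligands), -0.86 to 0.49 (activin and nodal ligands), -0.043 to 0.21 (type I receptors), 0.18 to 2.35 (secreted antagonists) and 0.048 to 0.77 (inhibitors). With 1 library left out, log2 fold changes changed sign for many members. They ran from -0.38 to 1.12 for BMP2, -0.013 to 1.46 for BMP4, -0.13 to 1.44 for BMP8B, -0.53 to 0.88 for GDF5, -0.070 to 2.31 for GDF6, -1.16 to 0.13 for GDF15 and -0.33 to 0.44 for BMP1. For activins they ran from -0.77 to 0.14 (INHBA) and -2.28 to 0.84 (INHBE). For receptors they ran from -0.24 to 0.31 (TGFBR1), -0.043 to 0.32 (BMPR1A), -0.35 to 0.10 (BMPR1B), -0.089 to 0.60 (ACVR1B), -0.34 to 0.23 (TGFBR2), -0.051 to 0.51 (BMPR2), -0.43 to 0.11 (ACVR2A), -0.68 to 0.17 (ACVR2B), -0.067 to 0.60 (TGFBR3) and -0.16 to 0.32 (ENG). For inhibitors and other genes they ran from -2.20 to 3.45 (FST), -0.49 to 0.77 (BAMBI), -0.095 to 0.45 (SMAD7), -0.20 to 0.49 (PMEPA1) and -0.16 to 0.038 (SMAD2). On log2(TPM + 1), log2(TPM + 0.1) and length-scaled counts, GDF11 gave 0.11, 0.12 and 0.025, BMPR1A -0.089, -0.095 and -0.19, BMPR1B 0.12, 0.16 and 0.040, and SMAD2 0.11, 0.11 and 0.0062. TGFBR2 gave 0.023, 0.023 and, with arm medians removed, 0.026, and SMAD5 gave 0.089, 0.091 and 0.076. ACVR2B gave 0.0059 on log2(TPM + 1) and 0.0090 on length-scaled counts, and with no filter BMP1 gave -0.0037 and TGFBR1 -0.0011. The cause of these changes was not tested. With 2 libraries a group, the differences in genes of few counts (CHRD, BMP6, INHBB, NODAL) rest on few fragments, although their fold changes are large.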

Other observations

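Further genes of the pathway that the report has not described were measured in the same way, and none of those named here passed edgeR's quasi-likelihood test. RGMA, a BMP co-receptor, stood at 4.74 and 2.94 CPM in the EED-knockout libraries against 0.771 and 1.22 CPM in the wild type libraries, without overlap (log2 fold change 1.94, SE 0.51; edgeR adjusted p = 0.799). GDF7, a BMP ligand of the roof plate, had 4.16 and 1.55 CPM in knockout against 0.716 and 0.111 CPM in wild type (2.77, SE 0.88), and AMH, the ligand that makes Müllerian ducts regress, had 0.632 and 0.855 CPM against 2.15 and 1.94 CPM (-1.45, SE 0.51). Of the 15 other superfamily ligands, 7 passed the filter, and 4 had 0 counts in every library.

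Of the genes of latency and activation, 15 of 17 were tested, 10 had a fold change above 0 and the median was 0.13. LTBP1, which stores latent TGF-beta in the matrix, had 272.5 and 115 CPM in knockout against 79.8 and 163 CPM in wild type, and THBS1, an activator of latent TGF-beta, had 3338 and 1911 CPM against 2852 and 2524 CPM; both overlapped. Among other antagonists, 11 of 17 were tested and 7 had a fold change above 0 (median 0.44), a number that was 4 without knockout 1 and 10 without wild type 2. SOST, sclerostin, had 114 and 9 counts in knockout against 14 and 21 in wild type, with knockout 1 alone high. CRIM1, a transmembrane protein that binds BMPs, had 274 and 243 CPM in knockout against 209 and 172 CPM in wild type, without overlap (log2 fold change 0.44, SE 0.20). Of the other receptors, 6 of 11 were tested. LTBP1, THBS1, SOST and CRIM1 were chosen after their values were seen. BMPER, TEK and VIM were not singled out by a rule set beforehand either. The transcripts described for TGFB3, BMP4, TGFBR2 and SMAD1 were not picked by a rule set beforehand.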
